A study of Mus musculus with 30 samples.

Results

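Haematopoietic stem cells of young male mice were compared between animals joined to an old partner and animals joined to a young one, which asks what the age of the joined partner does to gene expression in young stem cells. The comparison rests on 6 of the 30 samples of the series, found by the library code in the sample titles. Young heterochronic BoyJ mice (YHETBJ, joined to an old partner) gave 2 libraries, replicates 1 and 3, and the title code of replicate 2 stands on no column of the count table. The description of replicate 2 names a column that belongs by title to an old B6 group (OHETB6X) and was left out of the main fit. Young isochronic mice, joined to a partner of like age, gave 2 libraries of BoyJ (YISOBJ replicates 1 and 2) and 2 of B6 (YISOB6 replicates 1 and 2). All 6 donors were male and 8 to 12 weeks old at the operation, and all 6 had been joined, so the surgery and the shared circulation are on both sides of the comparison. BoyJ mice are congenic with B6 and differ from it around Ptprc (CD45) on chromosome 1, which lets the cells of joined mice be told apart. The labels used do not say which animals were partners, how long they were joined, or whether a library is from 1 mouse. Fits also used 4 young unjoined controls (YCNT, 2 of each strain) and 10 old male libraries. The old ones were 4 unjoined (OCNT) and 4 isochronic (OISO), each with 3 of B6 and 1 of BoyJ, and 2 heterochronic (OHET, both B6). Unjoined young mice were 8 to 12 weeks old, old B6 mice 22 months and old BoyJ mice 21 months. Below, YHET stands for the 2 YHETBJ libraries and YISO for the 4 isochronic ones.

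Parabiosis joins the skin and vessels of a pair of mice so that both share blood. Soluble factors and circulating cells of each animal then reach the marrow of the other, while resident stem cells mostly stay in their own niche. Stem cells of aged mice are known for a bias towards platelet and myeloid output, for less lymphoid priming and for higher levels of genes such as Selp, Vwf and Alcam. Signals of the TGF-beta and BMP families, cytokine signals that act through STAT factors, and the entry into the cell cycle are among the processes known to hold or release stem cells from rest.

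The 6 libraries held 13621590 counts (YHETBJ replicate 3) to 29529703 counts (YISOB6 replicate 2), with 15237 to 15681 genes detected. Stem cell markers were present in all 6 libraries. Kit, the receptor of stem cell factor, stood between 680.6 and 910.9 CPM (counts scaled to library size with TMM factors, as for all CPM below), Hlf, a transcription factor of stem cells, between 730.1 and 1187 CPM, and Mecom between 319.3 and 447.7 CPM. The label of 1 library conflicts: YISOBJ replicate 1 is a BoyJ library by its title and an unjoined B6 control by its description. Ctse, a cathepsin gene on GRCm38 chromosome 1 from 131638306 to 131675505, differed between the strains with the smallest p of all genes. It stood at 560 to 838 CPM in the 7 BoyJ libraries with labels free of conflict and at 26.1 to 159 CPM in the 12 B6 libraries, and at 740 CPM in YISOBJ replicate 1, within the BoyJ range. Cxcr4, the other gene called for strain, stood at 236 CPM there, above its BoyJ range (116 to 207 CPM) and its B6 range (29.7 to 86.0 CPM). Genes with weaker strain differences were mixed. Etnk2 (1.36 CPM) lay in its BoyJ range only, and Pik3c2b (35.1 CPM) and Tns1 (118.5 CPM) in their B6 range only. Whether that mouse was joined or unjoined cannot be read from Ctse. Without the library 0 genes were called and all 24 genes described first kept their sign, with Chst2 at 2.44, Ltbp4 at 3.24 and Sec16b at -4.93 on the log2 scale. YISOB6 replicate 1 stood apart in cell cycle genes. The 25 mitosis genes listed took 0.996% of its counts (95% Wilson interval 0.992% to 1.0%, counting error only), against 0.461% to 0.519% in the other YISO libraries and 0.422% to 0.535% in YHET.

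No gene passed an adjusted p of 0.05 between YHET and YISO. In the edgeR quasi-likelihood test with a strain term, 0 of 15710 genes (0%) were called, the smallest adjusted p was 0.251, limma-voom called 0 and DESeq2 called 49. An unadjusted p under 0.05 was found for 1017 genes (6.47% of those tested), 530 with positive values (higher in YHET, 3.37%) and 487 with negative values (3.10%), where 786 would be expected if no gene differed. Of the log2 values of all genes 48.4% were positive. Both YHET libraries lay above all 4 YISO libraries for 930 genes (5.92%) and below all 4 for 875 (5.57%). The libraries of a group were about as far apart as libraries of different groups. The root mean square log2 difference over 9760 expressed genes was 0.601 between the 2 YHET libraries, 0.583 between the 2 YISOBJ libraries and 0.707 between the 2 YISOB6 libraries, and it ran from 0.497 to 0.722 between a YHET and a YISO library. The smallest of all distances, 0.497, was between YHETBJ replicate 3 and YISOBJ replicate 2. The genes below are therefore those with the smallest p and not called genes, and p-values measure the spread between these samples, since the labels used do not say that they come from separate animals.

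Chst2 (ENSMUSG00000033350, GRCm38 chromosome 9, 95399292 to 95406722), a sulfotransferase that adds sulfate to sugar chains of glycoproteins, had the smallest p. It stood at 23.0 and 29.5 CPM in YHETBJ replicates 1 and 3, at 6.14 and 6.63 CPM in YISOBJ and at 3.35 and 6.6 CPM in YISOB6. Both heterochronic libraries were well above all 4 isochronic ones, and the fitted log2 fold change was 2.33 (SE 0.41; adjusted p = 0.251 in edgeR). The 4 YCNT libraries ran from 14.7 to 23.8 CPM: all 4 isochronic libraries lay below that range, YHETBJ replicate 1 within it and replicate 3 above it. In old cells the log2 value of OHET against OISO was 0.13 (SE 0.41).

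Genes of the TGF-beta and BMP pathway held 5 of the 33 tested members of their list with a positive value and an unadjusted p under 0.05 (3.37% of all genes), and none with a negative one. Ltbp4 (GRCm38 chromosome 7, 27305136 to 27337692) encodes a protein that binds latent TGF-beta in the matrix. Its CPM were 5.85 and 4.16 in YHET, 0.301 and 0.568 in YISOBJ and 0.55 and 0.577 in YISOB6 (fitted difference 3.45 on the log2 scale, SE 0.66; adjusted p = 0.298 in edgeR). The groups did not overlap, and YCNT, at 2.97 to 7.36 CPM, again lay with YHET. Bmp4 (chromosome 14, 46383520 to 46390669), a secreted ligand of the BMP receptors, stood at 21.8 and 9.49 CPM in YHET, 0.377 and 3.14 CPM in YISOBJ and 2.00 and 2.20 CPM in YISOB6 (log2 fold change 3.33, SE 0.72; edgeR adjusted p = 0.333). Here YHET lay above both YISO and YCNT, whose libraries ran from 2.04 to 7.03 CPM. Skil, an inhibitor of Smad signalling that the pathway itself induces, had 119 and 124 CPM in YHET, 95.5 and 67.1 in YISOBJ and 58.9 and 53.5 in YISOB6 (log2 fold change 0.76, SE 0.30). Ltbp3, another latent TGF-beta binding protein, had 43.4 and 36.7 CPM against 14.7 and 35.4 in YISOBJ and 22.1 and 29.9 in YISOB6 (0.75, SE 0.34). Neither gene overlapped between the groups. Over the whole list 19 members were positive and 14 negative, 6 lay above (5.92% of all genes) and 0 below all YISO libraries (5.57%), and the median log2 fold change was 0.07, against -0.02 for all genes tested. The members with small p were thus a ligand, proteins that bind latent ligand, an inhibitor and Smad3, while the median of the list was close to that of all genes and was -0.09 without YHETBJ replicate 3.

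**Figure D1:**
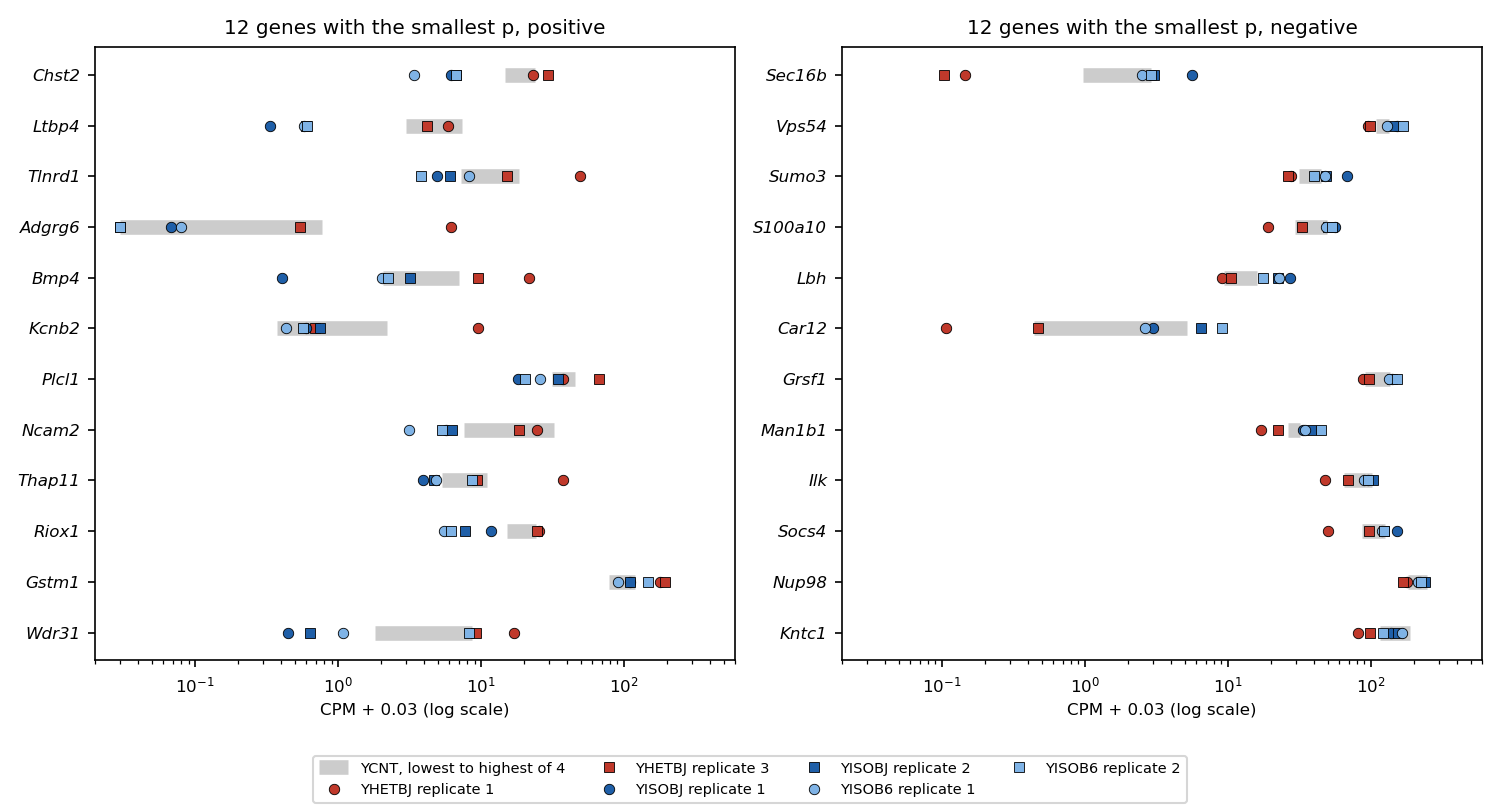
CPM + 0.03 on a log axis in the 6 libraries for the 12 genes with a positive and the 12 with a negative log2 value that had the smallest p (each point 1 library; circles and squares are the first and second library of a group). Grey bars run from the lowest to the highest of the 4 young unjoined controls. In 11 of the 12 positive genes both YHET points lie right of all YISO points, and in all 12 negative genes left of them. Over all genes 5.92% lay above and 5.57% below. The genes were chosen by p in these same libraries, so the lack of overlap follows largely from the choice. The 2 YHET points are often far apart, as for Adgrg6 and Kcnb2.

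Several of the 12 positive genes were much higher in YHETBJ replicate 1 than in replicate 3. In 5 of the 12, Bmp4 among them, its CPM was more than 2 times that of YHETBJ replicate 3, and in 0 of the 12 was it the reverse. Tlnrd1, a gene for an actin-bundling talin rod domain protein, stood at 49.5 and 15.0 CPM in YHET and at 3.79 to 8.20 CPM in YISO (log2 fold change 2.40, SE 0.51). Thap11, a zinc finger regulator of transcription, stood at 37.4 and 9.27 CPM against 3.92 to 8.62 CPM (2.20, SE 0.56). Adgrg6, an adhesion receptor coupled to G proteins, stood at 6.16 and 0.511 CPM in YHET, and its YISO libraries held 1, 0, 1 and 0 counts, where a count of 0 (taken as 3 counts) allows up to 0.108 to 0.114 CPM in the 2 libraries concerned. The ratio of summed counts was 212 (95% interval 57.8 to 1764, exact binomial, counting error only). Kcnb2, a potassium channel subunit, was at 9.5 CPM in YHETBJ replicate 1 and at 0.657 CPM in replicate 3, inside the YISO range of 0.4 to 0.72 CPM, and its log2 fold change of 3.26 became 0.31 without replicate 1.

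Positive genes with like values in both YHET libraries were Riox1, Gstm1 and Ncam2. Riox1, an oxygenase that modifies ribosomal and histone proteins, stood at 25.4 and 24.7 CPM in YHET and at 5.5 to 11.7 CPM in YISO (log2 fold change 1.55, SE 0.41). Gstm1, a glutathione transferase that detoxifies electrophiles, stood at 179 and 195 CPM against 91.4 to 148 CPM (0.76, SE 0.20), and the family has close relatives whose reads can be shared. Ncam2, a cell adhesion molecule, stood at 24.6 and 18.3 CPM against 3.10 to 6.25 CPM (2.07, SE 0.51). The groups did not overlap for any of the 3 genes. Plcl1, a phospholipase C-like protein without catalytic activity, stood at 37.4 and 66.6 CPM against 18.1 to 34.4 CPM and is 1 of the genes with a like value in old cells (log2 fold change 1.02, SE 0.25, in young cells and 0.83, SE 0.24, in old). Wdr31, a WD repeat protein, stood at 17.0 and 9.13 CPM in YHET, 0.414 and 0.606 CPM in YISOBJ, and 1.05 and 8.26 CPM in YISOB6, so that YHET was above all 4 but only slightly above YISOB6 replicate 2.

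Among negative genes Sec16b (ENSMUSG00000026589, GRCm38 chromosome 1, 157506728 to 157568425), which helps to organise the sites where cargo leaves the endoplasmic reticulum, had the smallest p. It held 3 counts and 1 count in YHETBJ replicates 1 and 3 (0.115 and 0.073 CPM), against 5.61 and 3.03 CPM in YISOBJ and 2.5 and 2.88 CPM in YISOB6. Summed counts gave a YISO over YHET ratio of 35.4 (95% interval 13.7 to 130.5, exact binomial, counting error only), and the fitted log2 fold change was -5.26 (SE 1.04; adjusted p = 0.298 in edgeR). The groups were far apart, and YCNT averaged 2.11 ± 0.836 CPM (SD, n = 4), on the side of YISO. In old cells the value of OHET against OISO was 0.18 (SE 0.76). With columns matched by the description in place of the title, the young value was -0.91 for Sec16b and 0.92 for Ltbp4, both far nearer to 0. That matching also changes which columns stand as YHET and YISO, as given below. Car12, a carbonic anhydrase of the cell surface, had a YISO over YHET ratio of 27.3 (13.8 to 63.5), with 0.0769 and 0.438 CPM in YHET and 2.6 to 9.09 CPM in YISO.

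The remaining negative genes had higher levels and smaller differences. S100a10 (chromosome 3, 93555080 to 93564643), which binds annexin A2 at the membrane, stood at 19.1 and 32.9 CPM in YHET, 56.0 and 49.9 CPM in YISOBJ and 48.8 and 53.2 CPM in YISOB6 (log2 fold change -1.11, SE 0.27). Sumo3, a small protein conjugated to other proteins, stood at 27.6 and 26.3 CPM against 40.2 to 68.2 CPM (-1.04, SE 0.24). Both YHET libraries lay below all YISO libraries for each of them. Lbh, a regulator of transcription, had 9.04 and 10.4 CPM in YHET and 17.7 to 27.4 CPM in YISO (-1.36, SE 0.34), and it was the 1 gene of these 12 whose YHET mean was nearer to YCNT (13.0 ± 2.78 CPM) than the YISO mean was. Ilk, a kinase that links integrins to the cytoskeleton, had 47.6 and 68.9 CPM against 89.6 to 104 CPM (-0.86, SE 0.23), and Socs4, of the suppressors of cytokine signalling, 49.97 and 97.2 CPM against 121 to 152 CPM (-0.85, SE 0.24). Vps54 of endosome to Golgi transport (-0.64, SE 0.15), Man1b1 of glycoprotein quality control (-0.95, SE 0.26), Grsf1 of mitochondrial RNA processing (-0.60, SE 0.16), the nucleoporin Nup98 (-0.44, SE 0.12) and the kinetochore protein Kntc1 (-0.96, SE 0.27) completed the 12. Their edgeR adjusted p ran from 0.298 to 0.653, and from 0.251 to 0.652 for the 12 positive genes. With columns matched by description all 24 genes kept their sign and 21 were nearer to 0. In 8 the log2 value was at most 0.5 times as large (Ltbp4, Plcl1, Wdr31, Sec16b, Lbh, Car12, Grsf1 and Socs4). In that matching YHET holds a further column, OHETB6X replicate 1 by title, and YISOBJ replicate 1 is the column titled YBJCNT replicate 1. Ctse in the further column stood at 166 CPM, below the BoyJ range of 560 to 838 CPM.

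The unjoined young controls gave a further point of reference that the rule for these genes did not use. The YHET mean was nearer to the YCNT mean than the YISO mean was in 5 of the 12 positive and 1 of the 12 negative genes (compared as log2 of CPM + 0.5). Over all genes tested this held for 47.8%, and for 41.3% of positive and 45.4% of negative genes with an unadjusted p under 0.05. For Chst2, Ltbp4, Plcl1, Ncam2 and Riox1 it was thus the isochronic mean that lay further from unjoined mice, and for Tlnrd1, Bmp4, Gstm1 and most negative genes it was the heterochronic mean. YCNT entered the same fit and shares its dispersion estimates.

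The genes linked to old stem cells by earlier signatures were followed in the young cells. Of 31 genes placed higher in old stem cells, 23 had positive and 8 negative values, 3 had an unadjusted p under 0.05 with a positive value (3.37% of all genes did), and the median log2 fold change was 0.24. Gda, a guanine deaminase, stood at 282 and 270 CPM in YHET, 195 and 187 CPM in YISOBJ and 127 and 154 CPM in YISOB6 (log2 fold change 0.71, SE 0.22; edgeR adjusted p = 0.673). YHET lay above all YISO libraries and above YCNT (123 to 234 CPM) but below all OISO libraries (420 to 616 CPM). Fhl1, a LIM domain protein, had 81.4 and 91.4 CPM against 63.5, 42.9, 50.3 and 94.2 CPM, so the groups overlapped (0.58, SE 0.24). Kcnb2, described above as high in YHETBJ replicate 1 only, was also 1 of the 3 with an unadjusted p under 0.05. Together the 31 genes took 0.217% and 0.222% of counts in YHET, 0.196% and 0.211% in YISOBJ and 0.180% and 0.162% in YISOB6. YHET was thus above every YISO library and above YCNT (0.169% to 0.201%), by a small part of the distance to OISO (0.432% to 0.534%). The gap to YISOBJ replicate 2 was 0.211% against 0.217%, with 95% Wilson intervals of 0.209% to 0.213% and 0.216% to 0.219% (counting error only). The YISO libraries themselves ran from 0.162% to 0.211%, a spread that these intervals do not measure. Without YHETBJ replicate 1 the median of the list was 0.25, and without YHETBJ replicate 3 it was 0.06. Within BoyJ alone 18 of the 31 were positive and 13 negative, with a median of 0.19 (50.3% of all genes tested there were positive).

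Of the 11 genes listed as lower with age, 10 had negative values and 0 an unadjusted p under 0.05, with a median of -0.38. Cd34, a surface marker that falls on the most primitive mouse stem cells, stood at 128 and 157 CPM in YHET, 158 and 191 CPM in YISOBJ and 147 and 231 CPM in YISOB6 (log2 fold change -0.54, SE 0.28). YISOB6 replicate 1 lay between the YHET libraries. Cd52 had 1.116 and 2.05 CPM in YHET and 2.80 to 7.68 CPM in YISO (-1.75, SE 1.18). The summed share of these genes overlapped between the groups, at 0.137% and 0.150% in YHET and 0.143% to 0.158% in YISO. Within BoyJ alone 10 of the 11 were again negative, with a median of -0.17.

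**Figure D2:**
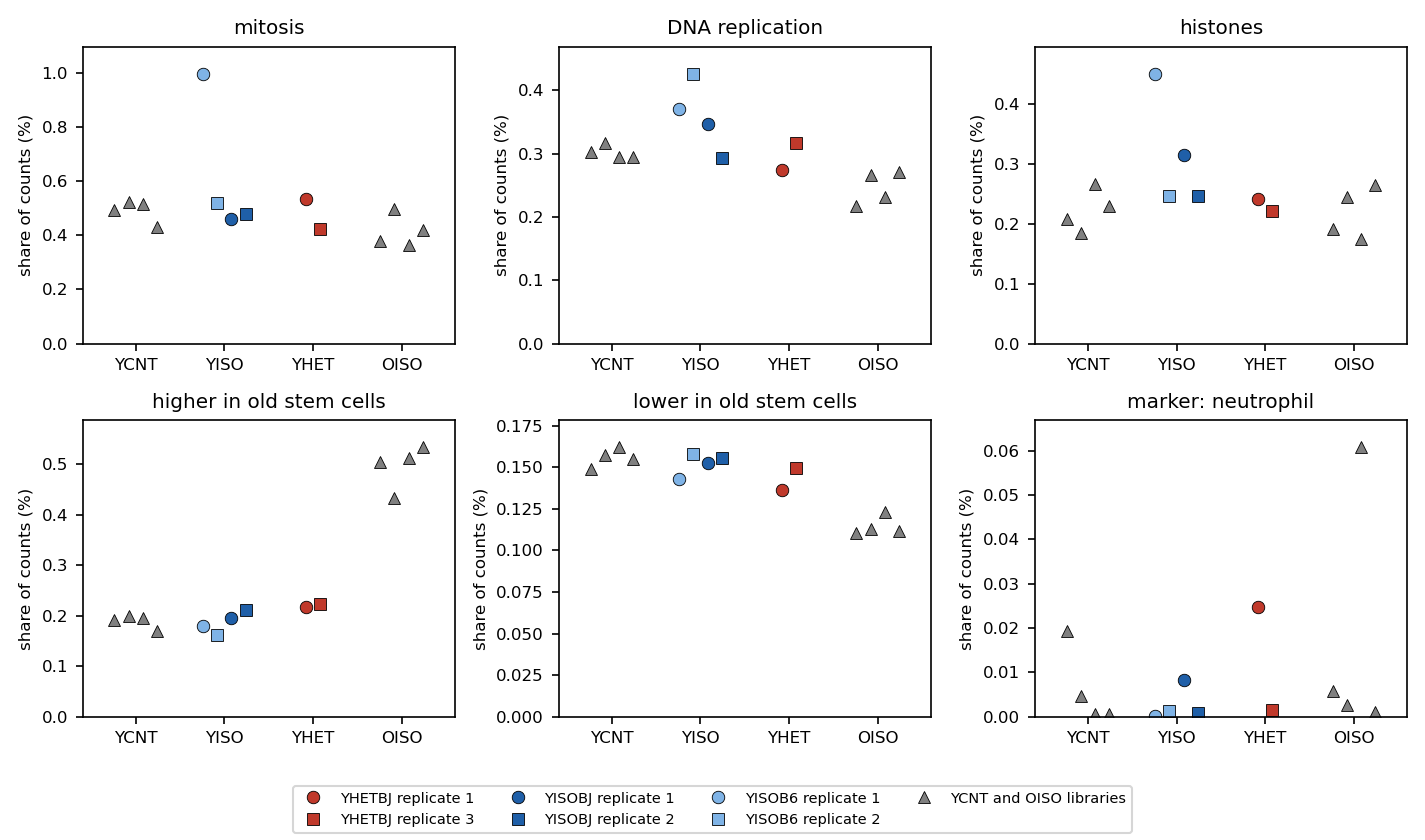
Share of counts in 6 gene lists by library, in percent from 0, for young unjoined (YCNT), young isochronic (YISO), young heterochronic (YHET) and old isochronic (OISO) mice; each point is 1 library. YISOB6 replicate 1 stands above all others in mitosis genes (0.996%), the genes placed higher in old stem cells are at 0.217% and 0.222% in YHET and at 0.432% or more in OISO, and neutrophil markers are high in YHETBJ replicate 1 (0.0248%) and in 1 OISO library.

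Lists of the cell cycle had low medians, which were nearer to 0 without YISOB6 replicate 1 or within BoyJ alone. Replication-dependent histone genes, which supply histones while DNA is copied, had the lowest median of the 32 lists of processes and lineages. Of 64 tested members 58 had negative values and 13 an unadjusted p under 0.05, all negative (3.1% of all genes were), with a median log2 fold change of -0.76. Within BoyJ alone 48 of 64 were negative, with a median of -0.33. Core histone genes of each class have near-identical copies, and how reads were divided among them is uncertain. By class, 16 of 17 H2B genes were negative (median -0.87), as were 14 of 16 H2A genes (-0.95), 11 of 12 H3 genes (-0.68), 11 of 13 H4 genes (-0.68) and 5 of 5 H1 genes (-0.33).

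H2B genes held 7 of the 13 histone genes with an unadjusted p under 0.05. Their promoters are shown because H2B genes are known for an octamer bound by the factor Oct-1. Many of the promoters searched did not hold it, Hist1h2bn among them. The 120 bases before the annotated start site are printed for the 3 H2B genes with the smallest p (RefSeq, GRCm38.p6, 5′ to 3′ on the gene's strand). Capitals mark the octamer ATTTGCAT, its form ATTTGAAT with 1 changed base, and CCAAT or ATTGG, the CCAAT box on either strand.
Hist1h2bn: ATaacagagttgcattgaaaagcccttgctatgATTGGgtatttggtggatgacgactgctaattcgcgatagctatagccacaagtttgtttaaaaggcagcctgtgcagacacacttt
Hist1h2bf: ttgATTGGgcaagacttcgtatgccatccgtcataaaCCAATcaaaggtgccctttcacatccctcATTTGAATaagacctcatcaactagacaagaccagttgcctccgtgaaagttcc
Hist2h2bb: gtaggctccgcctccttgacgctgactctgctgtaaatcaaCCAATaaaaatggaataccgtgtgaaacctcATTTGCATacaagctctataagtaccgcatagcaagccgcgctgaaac
They lie at chr13:21753956-21754075 (plus strand), chr13:23574208-23574327 (minus strand) and chr3:96269580-96269699 (plus strand), and the first 2 capitals of Hist1h2bn are the end of a CCAAT box that starts before the printed stretch. In windows of 300 bases (250 before and 50 after the start), searched on both strands, ATTTGCAT was found in 37.5% of 16 promoters of 15 H2B genes, in 14% of 43 promoters of other histone genes and in 1.74% of all 32851 promoters of the table. ATTTGAAT, searched after the sequences had been seen, was in 50% of the H2B promoters, in 11.6% of those of other histone genes and in 1.25% of all. CCAAT was in all 16 H2B promoters, in 76.7% of those of other histone genes and in 37.4% of all promoters. Of the 7 H2B genes with an unadjusted p under 0.05, 3 held ATTTGCAT, as did 2 of the 8 others with a promoter in the table. A match is a string of letters and not a measured binding site.

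Both heterochronic libraries were low in these genes. Hist1h2bf stood at 5.12 and 8.91 CPM in YHET, 24.7 and 21.5 CPM in YISOBJ and 25.6 and 25.0 CPM in YISOB6 (log2 fold change -2.27, SE 0.74; edgeR adjusted p = 0.688). Hist1h2bn stood at 8.23 and 11.5 CPM against 28.9 and 22.3 in YISOBJ and 25.4 and 17.3 in YISOB6 (-1.61, SE 0.52). Both were below all YISO libraries, and YCNT, at 7.80 to 12.4 CPM for Hist1h2bf, lay nearer to YHET. Hist2h2bb stood at 8.00 and 8.62 CPM against 27, 11.4, 28.1 and 15.5 CPM (-1.36, SE 0.55). The 66 histone genes of the count table together took 0.242% and 0.222% of counts in YHET and 0.185% to 0.267% in YCNT. They took 0.315% and 0.246% in YISOBJ and 0.450% and 0.247% in YISOB6. YHET was below every YISO library, by little for YISOBJ replicate 2 and YISOB6 replicate 2, and within the range of YCNT. Leaving out YISOB6 replicate 1 moved the median from -0.76 to -0.55.

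Genes of DNA replication had 26 of 30 negative values, 4 with an unadjusted p under 0.05 (3.1% of all genes), and 9 of 30 lay below all YISO libraries in both YHET libraries, against 5.57% of all genes. Cdt1, which loads the replicative helicase, stood at 20.1 and 24.0 CPM in YHET, 39.1 and 42.1 CPM in YISOBJ and 45.3 and 43.7 CPM in YISOB6 (log2 fold change -0.96, SE 0.36; edgeR adjusted p = 0.749). Mcm7, a helicase subunit, stood at 106 and 135 CPM against 174 and 154 in YISOBJ and 159 and 229 in YISOB6 (-0.70, SE 0.30). Pole, the catalytic subunit of a leading-strand polymerase, stood at 103 and 115 CPM against 169, 121, 199 and 174 CPM (-0.68, SE 0.30). None of these overlapped. The list's median of -0.39 became -0.16 within BoyJ alone, where 23 of 30 were negative. There 1 negative member had an unadjusted p under 0.05 (1.86% of all genes tested there). The summed share of the list overlapped (0.275% and 0.316% in YHET, 0.293% to 0.426% in YISO).

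Mitosis genes had 24 of 25 negative values and a median of -0.38, but the values within BoyJ gave a median of -0.05 with 14 of 25 negative. Kif20a, a kinesin of cytokinesis, stood at 21.5 and 21.5 CPM in YHET, 28.7 and 32.1 CPM in YISOBJ and 104 and 45.2 CPM in YISOB6 (log2 fold change -1.17, SE 0.50). Aurkb, a mitotic kinase, stood at 45.9 and 36.7 CPM against 41, 72.6, 124 and 82.9 CPM (-0.85, SE 0.38). For both genes YISOB6 replicate 1 was the highest of the 6 libraries. Without it the list's median was -0.17, and without YHETBJ replicate 3 it was -0.14. With YISOBJ as a group of its own in the fit of 20 libraries, YHETBJ against YISOBJ gave medians of -0.04 for mitosis, -0.15 for DNA replication and -0.33 for histones.

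**Figure D3:**
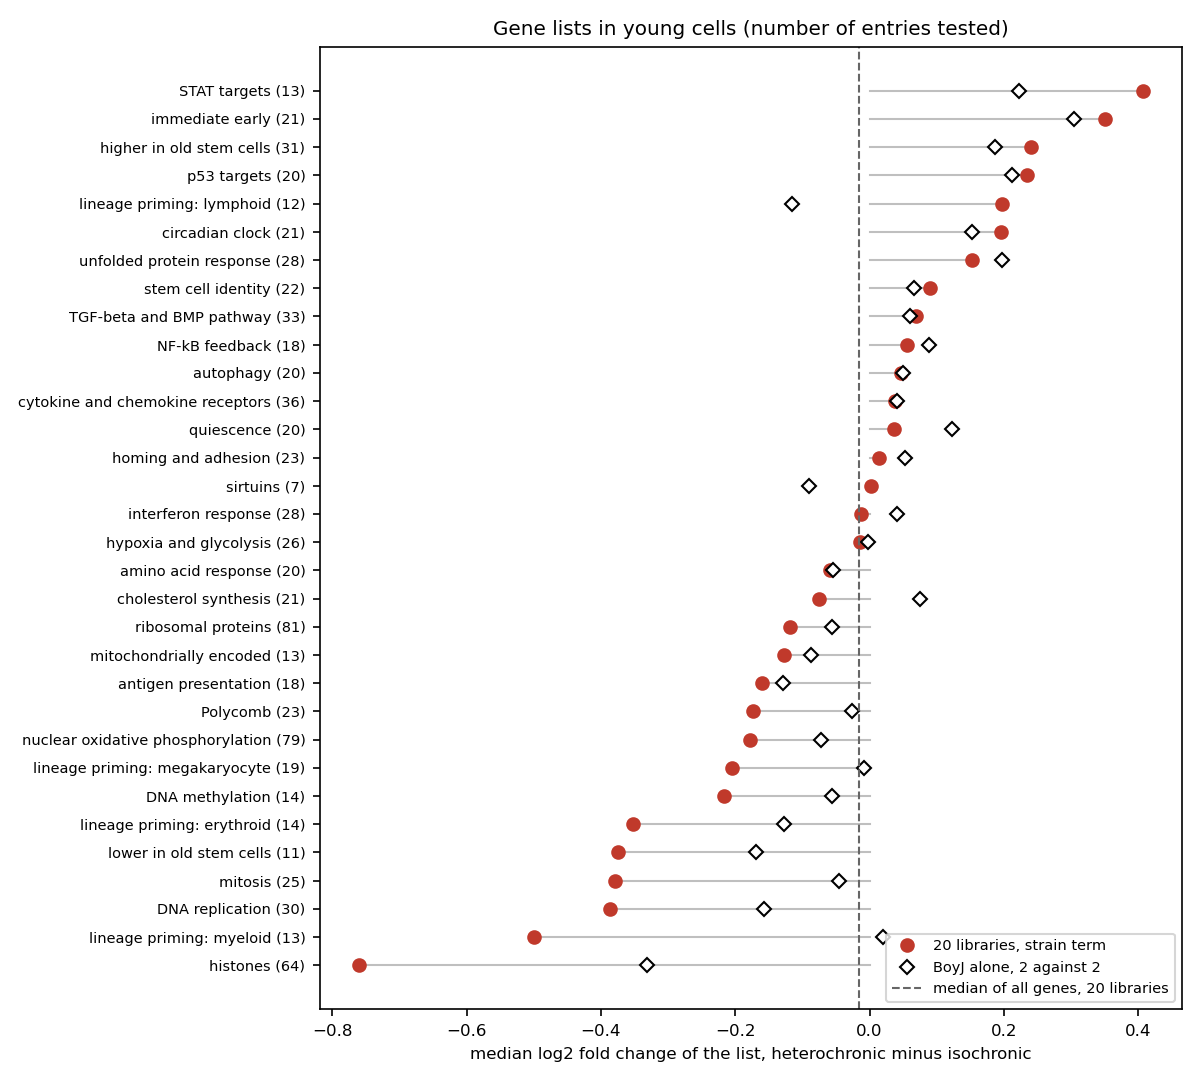
Median log2 fold change (heterochronic minus isochronic) of 32 gene lists, with the number of entries tested in brackets; filled circles are the fit of 20 libraries with a strain term, open diamonds the 4 BoyJ libraries alone, and the dashed line the median of all genes (-0.02). Histone genes have the lowest median in both fits, while mitosis genes move from -0.38 to -0.05 when only BoyJ is used.

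Protein synthesis and respiration lists had small negative medians. Of 81 cytoplasmic ribosomal protein genes 11 had positive values (48.4% of all genes did) and 70 negative ones, with a median of -0.12. Of the negative ones 9 had an unadjusted p under 0.05 (3.1% of all genes). Within BoyJ alone 55 of 81 were negative, with a median of -0.06. Rps19 stood at 831 and 837 CPM in YHET and at 957 to 1079 CPM in YISO (log2 fold change -0.37, SE 0.13), and Rpl39 at 1340 and 1333 CPM against 1425 to 1748 CPM (-0.35, SE 0.14). Neither overlapped, but the summed share did, at 8.70% and 8.71% of counts in YHET and 8.16% to 9.61% in YISO. Of 79 nuclear genes of oxidative phosphorylation 61 were negative (median -0.18), with Ndufb8 of complex I at 27.6 and 38.7 CPM against 41.7 to 73.3 CPM (-0.94, SE 0.28). An unadjusted p under 0.05 was found for 6 negative members (3.1% of all genes) and 1 positive one (3.37%). Within BoyJ alone 46 of 77 were negative, with a median of -0.07. All 13 genes encoded by the mitochondrial genome had negative values, with a median of -0.13 and 0 with an unadjusted p under 0.05, and mt-Nd1 at 3215 and 3487 CPM against 3349 to 4519 CPM.

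Targets of STAT signalling were mostly positive. Of 13 STAT target genes 11 were positive (48.4% of all genes) and 4 lay above all YISO libraries (5.92%), with a median of 0.41. An unadjusted p under 0.05 was found for 1 of them, near the share over all genes (3.37%). Their summed share was 0.134% and 0.131% in YHET, 0.124% and 0.112% in YISOBJ and 0.0795% and 0.107% in YISOB6, without overlap, and 0.112% to 0.125% in YCNT. Stat5a, a factor activated by thrombopoietin and other cytokines, stood at 143 and 124 CPM in YHET and at 73.0 to 117 CPM in YISO (log2 fold change 0.41, SE 0.20). Pim2, a kinase gene that STAT factors induce, stood at 25.2 and 52.8 CPM against 24.2 to 32.1 CPM, so that only YHETBJ replicate 3 was clear of YISO (0.66, SE 0.31). Within BoyJ alone 11 of 13 were positive, with a median of 0.22, and without YHETBJ replicate 3 the median was 0.21.

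Of 21 circadian clock genes 17 were positive (48.4% of all genes were), with a median of 0.20. Of the positive ones 2 had an unadjusted p under 0.05 (3.37% of all genes). Within BoyJ alone 14 of 21 were positive, with a median of 0.15. Clock, an activator at the core of the clock, stood at 99.6 and 92.2 CPM in YHET and at 49.4 to 91.6 CPM in YISO (log2 fold change 0.50, SE 0.23). Both YHET libraries lay above all YISO libraries, by little for YISOBJ replicate 1. The labels used give no hour of collection, and the hour and the group cannot be told apart. Of 21 immediate early genes, which cell isolation also induces, 17 were positive with a median of 0.35, but YHETBJ replicate 1 had 0.0578% of counts in them, inside the YISO range of 0.042% to 0.0803%, and replicate 3 had 0.107%. Without YHETBJ replicate 3 that median was -0.12.

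**Figure D4:**
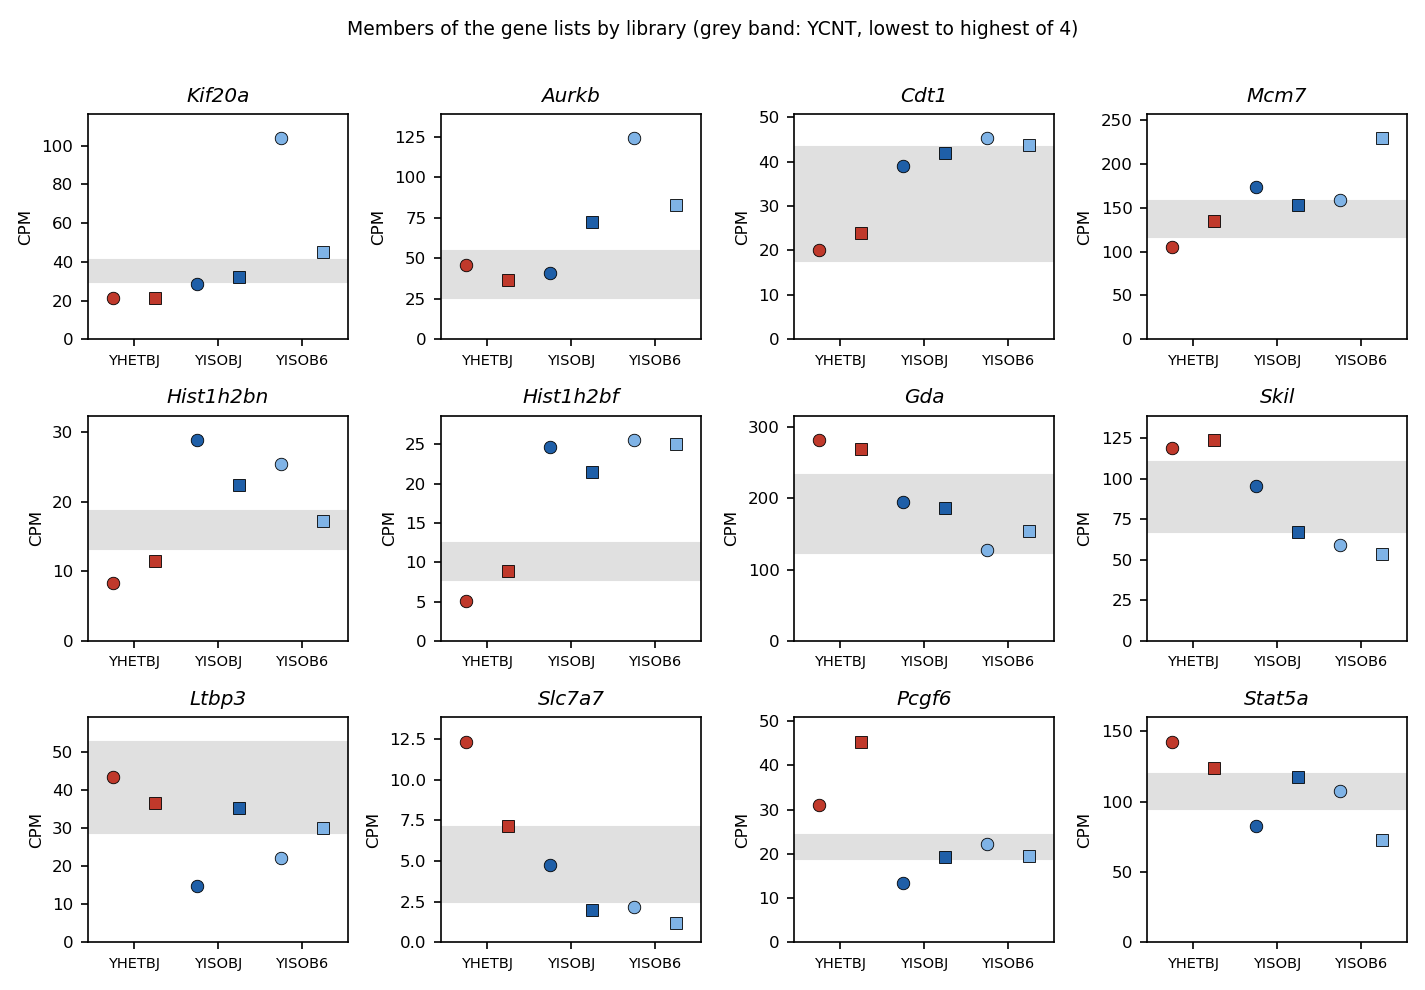
CPM by library, from 0, for 12 members of the gene lists (each point 1 library; circles and squares are the first and second library of a group; grey bands are the range of 4 young unjoined controls). Cdt1, Mcm7, Hist1h2bn and Hist1h2bf are lower in both YHET libraries than in all YISO libraries, Gda, Skil and Stat5a higher, and Kif20a and Aurkb peak in YISOB6 replicate 1.

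Genes that set stem cell identity were split in sign. Of 22 members 12 were positive and 10 negative, and the median was 0.09. An unadjusted p under 0.05 was found for 1 positive member, near the share over all genes (3.37%). That was Meis1, a homeobox factor of stem cells, at 662 and 629 CPM in YHET, 534 and 592 CPM in YISOBJ and 582 and 428 CPM in YISOB6 (log2 fold change 0.27, SE 0.13). Slamf1, a surface marker used to sort stem cells, stood at 57.6 and 54.6 CPM in YHET and at 35.8 to 82.4 CPM in YISO, with the YISO libraries spread on both sides (-0.07, SE 0.33). Ptprc stood at 379 and 444 CPM against 426 to 514 CPM (-0.18, SE 0.12). Cdkn1a, the cell cycle inhibitor p21, had 30.2 and 2.19 CPM in YHET and 10.1, 2.16, 0.35 and 1.01 CPM in YISO, a log2 fold change of 2.02 (SE 0.93) that was -0.87 without YHETBJ replicate 1.

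Lineage priming lists were low in counts and mixed. Of 13 myeloid genes 4 were positive and 9 negative. Cebpa, a master factor of myeloid cells, held 0 counts in both YHET libraries and 83 counts over YISO, at least 10.9-fold higher in YISO with 3 counts over the group as the limit, and Ms4a3 held 0 against 140 (at least 18.4-fold). The counts were mostly those of YISOBJ: Ms4a3 stood at 4.22 and 0.795 CPM there and at 0.05 and 0.216 CPM in YISOB6, and Cebpa was at 1.77 and 1.21 CPM and at 0.2 and 0 CPM. Of 12 lymphoid genes tested 7 were positive, of 14 erythroid genes 4 and of 19 megakaryocyte genes 7. In these lists 0, 0 and 1 member had an unadjusted p under 0.05 (6.47% of all genes, either direction). Without YISOBJ replicate 1 the median of the erythroid list went from -0.35 to 0.12. Polycomb genes, which keep target genes silent, had 8 of 23 positive, with Pcgf6 at 31.0 and 45.4 CPM in YHET and 13.4 to 22.2 CPM in YISO (log2 fold change 1.16, SE 0.33). Both YHET libraries of this Polycomb subunit gene lay above all YISO libraries.

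Stress and nutrient lists each held single genes with wide values. Among 28 genes of the unfolded protein response, 19 positive with a median of 0.15, Clgn, an endoplasmic reticulum chaperone, had 157 and 23 counts in YHET and 2, 1, 0 and 0 in YISO (ratio of summed counts 152, exact 95% interval 51.3 to 745.3, counting error only). Slc7a7, a transporter of cationic amino acids, stood at 12.4 and 7.16 CPM against 4.78, 1.97, 2.15 and 1.19 CPM (log2 fold change 1.94, SE 0.56). The groups did not overlap for either gene. Interferon response genes were evenly split, 14 positive and 14 negative with a median of -0.01, with Oas2 at 9.66 and 10.6 CPM against 1.88 to 5.80 CPM (1.42, SE 0.60) and Ifih1, a sensor of viral RNA, at 167 and 159 CPM against 182 to 244 CPM (-0.44, SE 0.16). Of 21 cholesterol synthesis genes 9 were positive.

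Markers of other blood cells were scarce and uneven. Neutrophil markers took 0.0248% of counts in YHETBJ replicate 1 and 0.00153% in replicate 3, against 0.000183% to 0.00820% in YISO. Of 9 tested markers 8 had positive fitted values and 1 a negative one. Mmp8 and Mmp9 had counts in YISO but none in either YHET library. At least 1 of them is thus among the 8, so a positive sign in this list need not mean higher counts in YHET. Ltf, lactoferrin of neutrophil granules, stood at 16.7 CPM in YHETBJ replicate 1 and at 0 in replicate 3. Monocyte and macrophage markers took 0.000773% and 0.000969% in YHET and 0.00127% to 0.00432% in YISO, with 7 of 9 negative, C1qc at 0 in both YHET libraries, and Cd68 at 2.46 and 7.16 CPM against 8.37 to 28.7 CPM. Shares in B cell markers (0.00149% and 0.00304% in YHET, 0.00159% to 0.00285% in YISO) and in T and NK cell markers (0.00272% and 0.00364%, 0.00325% to 0.00458%) overlapped, with Trac at 0 in both YHET libraries. Erythroblast markers took 0.00994% and 0.0106% in YHET and 0.0113% to 0.0162% in YISO, with Hba-a1 and Slc4a1 at 0 in both YHET libraries. Of the 9 tested, 4 were positive and 5 negative, and within BoyJ alone 4 of 7 were positive, with a median of 0.08. Most of the share was that of Hemgn, at 77.06 and 83.39 CPM in YHET and 87.05 to 128.5 CPM in YISO. Endothelial and stromal markers took 0.0104% and 0.0140%, within the YISO range of 0.00937% to 0.0146%. Without YISOBJ replicate 1 the median log2 value was 4.00 in place of 1.88 for neutrophil markers, -0.69 in place of -1.41 for monocyte and macrophage markers and 0.15 in place of -0.51 for erythroblast markers. Without YHETBJ replicate 1 these medians were -0.67, -1.94 and -0.72, so the neutrophil median turned negative. The part of such cells in the values above was not tested, and fewer cells of a type and less RNA per cell cannot be told apart in bulk samples.

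The comparison was repeated within BoyJ alone, 2 libraries against 2 of the same libraries, which needs no strain term. With 2 residual degrees of freedom 0 of 14018 genes (0%) were called, the smallest adjusted p was 0.912, DESeq2 called 21, and 541 genes (3.86%) had an unadjusted p under 0.05, 2% of those tested with positive and 1.86% with negative values. All 24 genes described above kept their sign with an unadjusted p under 0.05, which the shared libraries make no independent repeat. Mpo, the myeloperoxidase of myeloid precursors, stood at 9.08 and 3.29 CPM in YHETBJ and 50.99 and 34.1 CPM in YISOBJ (log2 fold change -2.77, SE 0.54; edgeR adjusted p = 0.912). In YISOB6 it was at 1.70 and 20.5 CPM, so that the difference was not seen against both isochronic strains. Zfp784, a zinc finger gene, had 0 and 2 counts in YHETBJ and 484 and 135 in YISOBJ, but 0 and 97 in YISOB6. Hspa1l, a heat shock protein gene with close relatives, was at 0.308 and 0.657 CPM in YHETBJ, 15.7 and 4.17 CPM in YISOBJ, and 0.5 and 0.397 CPM in YISOB6. Zfp114 was lower than all 4, at 4.31 and 4.16 CPM against 21.2 and 16.6 CPM in YISOBJ and 13.2 and 15.5 CPM in YISOB6 (-2.16, SE 0.53).

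Whether the partner's age acted differently in young and old cells was asked with an interaction term, (YHET minus YISO) minus (OHET minus OISO). No gene passed (0 of 15710, 0%; smallest adjusted p = 0.265), DESeq2 called 90, and 1329 genes (8.46%) had an unadjusted p under 0.05, 4.03% of those tested with positive and 4.43% with negative values, while 49.6% of all values were positive. The old heterochronic libraries are B6 and the young ones BoyJ, so this contrast leans on the strain term. Lamtor3, a scaffold of lysosomal mTORC1 signalling, stood at 18.7 and 19.6 CPM in YHET and at 27.3 to 46.9 CPM in YISO, while in old cells it stood at 42.2 and 43.1 CPM in OHET and at 21.3 to 24.2 CPM in OISO. The effects were -1.04 (SE 0.32) in young and 0.95 (SE 0.29) in old cells, a difference of -1.98 (SE 0.44; edgeR adjusted p = 0.359), and in both ages the groups lay apart without overlap, in opposite order. S100a10 had the same form, -1.11 (SE 0.27) and 0.68 (SE 0.24). Twnk, the helicase of mitochondrial DNA, had the reverse, at 60.5 and 41.3 CPM in YHET against 21.9 to 32.5 CPM in YISO, and 16.1 and 13.2 CPM in OHET against 16.9 to 35.6 CPM in OISO (difference 2.14, SE 0.48; edgeR adjusted p = 0.359). Of the 24 genes chosen in young cells, 10 of 12 positive and 4 of 12 negative had the same sign in old cells. Several of these old values were smaller than their SE, as for Wdr31 (0.28, SE 0.88), while others were not, as for Plcl1 (0.83, SE 0.24). Without the share of same signs over all genes, the counts cannot be read as an effect that young and old cells share. Without OHETB6 replicate 3, which leaves OHET with 1 library whose spread is borrowed from the other groups, 72 genes were called in place of 0.

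In the authors' deposited table that sets YISO against YHET, 70 genes had an adjusted p under 0.05. The table does not say which group its log2 values are relative to, so no direction is taken from it. Of the 70 genes, 64 passed the filter used here and 29 of these had an unadjusted p under 0.05. For 31 of the 70, at most 1 of the 6 libraries held 3 or more counts. Foxq1, a forkhead factor with 1 of the smallest adjusted p in the authors' deposited table (2.37e-24), had 53 counts in YHETBJ replicate 1, 2 in replicate 3 and 0 in all YISO libraries. Gpr1, at an adjusted p of 3.59e-11 in the authors' deposited table, had 59 counts in YISOB6 replicate 1 and 0 in the other 5 libraries. Ccr3, a chemokine receptor gene, had 57 counts in YISOBJ replicate 2, 21 in YISOB6 replicate 2 and 0 in the others (authors' deposited table, adjusted p = 7.72e-12). Which columns the authors placed in each group is not given in the sources used here.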

How the data were processed

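Stem cells were sorted and their RNA amplified with a kit for small inputs, per the labels' protocols. The authors deposited 1 table of estimated counts (whole numbers) with 30 columns and 17562 genes. The tools named in the submitters' processing notes are FastQC, MultiQC, Salmon and DESeq2, with build GRCm38 and no versions. The authors also deposited a table of YISO against YHET with log2 fold changes, p-values and adjusted p-values, which was copied and not refitted.

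Columns were matched by the code in the sample titles. For 10 columns the description gives the code to another sample, and 1 further column (code in no title) was not used. The fit took the 19 libraries without such a conflict plus YISOBJ replicate 1. The counts, whole as deposited, entered edgeR 4.0.16 (R 4.3.3): TMM factors, filterByExpr and the robust quasi-likelihood F-test over 6 conditions and strain (13 residual degrees of freedom, 15710 genes). Benjamini-Hochberg adjustment ran over all genes, with a threshold of 0.05. Each SE was taken as the log2 value divided by the square root of F. The 20 libraries held 12269259 to 30932977 counts. Chi-square per degree of freedom was 45.4 between the libraries of YHETBJ, 62.2 for YISOBJ and 88.9 for YISOB6, so none of these pairs was a repeat. Other pairs were not checked by this measure.

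Named genes were the 12 of smallest p per direction, with a floor of 1 on mean log2 CPM and an established symbol, up to 4 members per list, 5 per direction in the other comparisons, up to 6 per direction of the authors' table, and Ptprc, Slamf1 and Cdkn1a. A few further members were named after their values were seen. The members and all 38 gene lists were chosen with earlier results of these data known. Alternatives were DESeq2 1.42.0, limma-voom (limma 3.58.1), RLE factors, no filter, other matchings, other sets of libraries and leaving out each library. The fit was tested on simulated data. Gene IDs were matched to symbols and GRCm38 coordinates for 17547 genes, and promoters from RefSeq by symbol or synonym. Some members of the lists are not reported here.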

Additional observations from a re-analysis of the deposited data

Results flagged for a closer look

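In 7 of 65 values checked (the 24 genes, 3 fixed genes and 38 list shares), 1 of the 4 YISO libraries stood apart from the other 3 by Dixon's test at the 95% level, where chance gives about 1 in 20. Chst2 was low in YISOB6 replicate 1 (3.35 CPM), and Ltbp4 low in YISOBJ replicate 1 (0.301 CPM), the library with conflicting labels. That library was also high in Sec16b (5.61 CPM), in Socs4 (152 CPM) and in neutrophil markers (0.00820% of counts). Wdr31 was high in YISOB6 replicate 2 (8.26 CPM). Mitosis genes took 0.996% of counts in YISOB6 replicate 1.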

How the results depend on the processing

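With 2 heterochronic libraries the count of 0 called genes held in the fits with other matchings, RLE factors, no filter, limma-voom, no strain term and other sets of libraries, while DESeq2 called 49 genes (23 positive, 26 negative; 17 of the 24 genes, 54 adjusted p not given). Leaving out 1 library gave 0 to 1 called genes: Gm28048 without YHETBJ replicate 1 (1 count in replicate 3, 543 in replicate 1, 1542 to 2265 in YISO) and Gm14434 without YHETBJ replicate 3 (0 counts in replicate 1, 60 in replicate 3, 118 to 293 in YISO), both named after their values were seen; the lone YHET library is then assumed to vary like the other groups. Positive genes with an unadjusted p under 0.05 numbered 260 in the 6 libraries alone and 315 to 663 when 1 library was left out, 315 without YHETBJ replicate 1; negative ones 213 in the 6 libraries, 323 in young libraries only and 206 to 671 when 1 was left out, 206 without YHETBJ replicate 1. Within BoyJ DESeq2 called 21, and the unadjusted count was 343 to 934 (343 without YHETBJ replicate 1, 934 without YHETBJ replicate 3, 867 without YISOBJ replicate 2). For the interaction DESeq2 called 90, and leaving out 1 library gave 0 to 72 called and 921 to 2565 unadjusted, the highest without OHETB6 replicate 3.

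Of single-gene values 1681 kept their sign and side of the threshold, 19 passed it with DESeq2 and 22 turned sign, and 90 of 608 list medians moved by more than the spread between replicates; the cause was not tested. Matching by description (29 columns; the planned 30th has a code in no title) gave Ighm 1.5, Cd52 0.16, Ms4a3 4.16, Slc4a1 0.29, Cox4i2 -0.65, Ifi44 -0.23, Itgb2 0.4 and Cd4 1.06, and Sec16b -0.91 and Ltbp4 0.92 with their sign kept. limma-voom gave Slamf1 0.00 and Cd79b -0.07, and no strain term Cd79b -0.04 and Cxcl12 -0.15. Leaving out 1 library, the log2 values ran from -0.87 (without YHETBJ replicate 1) to 3.39 for Cdkn1a, and with the same library giving the lowest value from -0.03 to 7.45 for Egr2, -0.26 to 1.75 for Ddit3, -6.00 to 6.64 for Ltf, -0.68 to 6.12 for Camp and -0.50 to 6.40 for Cxcl12. They ran from -0.63 (without YHETBJ replicate 3) to 0.66 for Cd79b, 0.00 without YISOBJ replicate 2, and from -0.29 to 0.22 (without YISOBJ replicate 2) for Slamf1, 0.09 without YISOB6 replicate 1. No paired analysis was possible because replicate numbers were given in accession order and the labels used name no partners. At this depth genes under about 0.1 to 0.2 CPM rest on 3 or fewer counts.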

Other observations

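Antigen presentation genes, not described above, had 14 of 18 negative values with a median of -0.16 and 0 with an unadjusted p under 0.05, and H2-Aa, a class II chain, stood at 22.7 and 38.3 CPM in YHET and 31.9 to 50.7 CPM in YISO. DNA methylation genes had 11 of 14 negative values (median -0.22), with Mbd1 at 38.5 and 41.3 CPM against 37.2 to 84.5 CPM. Of 20 p53 targets 13 were positive (median 0.24), and Phlda3 had 46 counts over YHET and 7 over YISO (ratio 16.7, exact 95% interval 7.48 to 43.8). NF-kB feedback genes were split, 10 positive and 8 negative, with Rel at 55.9 and 69.4 CPM against 81.4 to 98.0 CPM and the adhesion molecule Icam1 at 31.2 and 21.3 CPM against 10.9 to 20.1 CPM, each without overlap. Autophagy genes were split 10 to 10 (median 0.05), with Map1lc3b at 146 and 147 CPM against 163 to 212 CPM. Sirtuins, quiescence genes and homing and adhesion genes had medians of 0.00, 0.04 and 0.01.

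Ctse CPM of the columns below were scaled to total counts without TMM factors. Of the 9 other columns whose title and description name different samples, Ctse stood at 665 and 772 CPM in the 2 that are BoyJ by title and at 28.4 to 69.0 CPM in 6 of the 7 that are B6 by title. The remaining column, OHETB6X replicate 1, stood at 166 CPM. By description this column, OHETB6 replicate 1 (60.15 CPM) and OISOB6 replicate 1 (52.19 CPM) would be BoyJ. They lay below the BoyJ range of 560 to 838 CPM. YISOBJ replicate 1 (737 CPM) and YBJCNT replicate 2 (772 CPM) would be B6 by description and lay above the B6 range of 26.1 to 159 CPM. In the other conflicting columns both labels name the same strain.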
